A study of Mus musculus with 4 samples.

Results

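Immunoglobulin kappa variable (Igkv) segments are the gene segments that encode most of the variable domain of the mouse kappa light chain. Every gene of the comparison whose symbol began with Igkv and a digit was taken, which gave 160 of 50593 genes. The annotation of GRCm38 places all 160 on chromosome 6 and lists 100 as V genes and 60 as pseudogenes. The number after Igkv names the V subfamily, a group of segments of similar sequence.

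Sciatic nerve RNA of 6-month-old mice (129S1/SvImJ in the sample labels, Sv/129 in the methods) was sequenced from Ion Torrent libraries. HSF V30M mice carried a human transthyretin (TTR) transgene with the V30M mutation, an endogenous Ttr-null background and a heterozygous deletion of heat shock factor Hsf1. HSF WT mice, the controls, shared the heterozygous Hsf1 deletion and had no transgene. The labels list 2 samples per group, whereas the methods give n = 4 without saying whether this is per group. The promoter of the transgene is not given in the sources used here. The comparison asks how nerve gene expression differs in this model of hereditary transthyretin amyloidosis. It holds 1 value per gene and group, the authors' FPKM, which counts sequenced fragments per length of transcript and per depth of library. No value per mouse was used, and no test between mice was run.

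The labels were checked on the altered genes. Hsf1, which is heterozygous in both groups, had 7.94 FPKM in HSF V30M and 15.0 in HSF WT, 1.88-fold lower, although the label gives both groups the same deletion. Mouse Ttr, which should be null in HSF V30M, had 6.10 FPKM there, from 130 to 155 fragments. In HSF WT it was listed at 0, under a floor of 0.197 FPKM for 3 fragments. Read as mouse Ttr, the HSF V30M value goes against the null allele, but whether its fragments came from the human transgene was not tested. The Hsf1 and Ttr values thus do not settle whether the genotype labels hold. HSF V30M and HSF WT are used here only as the names of the groups. The tissue label was checked on Sox10, a transcription factor of Schwann cells, which had 75.7 FPKM in HSF V30M and 54.8 in HSF WT.

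A kappa chain gene is assembled in a developing B cell, which joins a V segment to a joining segment (Igkj) upstream of the constant gene Igkc. Each B cell clone keeps the segment it joined, and plasma cells, which secrete antibody, hold large amounts of the transcript. In bulk nerve, the Igkv segments that are read thus reflect which B lineage clones the sample holds, and healthy nerve is known to hold few such cells.

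The V exon of an Igkv segment ends just before the point of joining, a few codons after a conserved cysteine. The last 90 coding bases of 5 Igkv3 segments are shown because this subfamily held most of the HSF WT signal. They are from the GRCm38 transcripts, in coding direction, and capitals mark bases that differ from Igkv3-2.
Igkv3-2 (chr6:70698978-70699067, plus strand): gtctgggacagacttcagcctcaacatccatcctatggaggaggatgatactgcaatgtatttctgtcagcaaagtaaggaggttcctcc
Igkv3-5 (chr6:70663806-70663895, plus strand): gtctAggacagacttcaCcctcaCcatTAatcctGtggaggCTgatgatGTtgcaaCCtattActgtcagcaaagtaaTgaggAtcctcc
Igkv3-12 (chr6:70518760-70518849, plus strand): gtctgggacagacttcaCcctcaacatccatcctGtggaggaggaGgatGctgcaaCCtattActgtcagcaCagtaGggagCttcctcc
Igkv3-1 (chr6:70704088-70704177, plus strand): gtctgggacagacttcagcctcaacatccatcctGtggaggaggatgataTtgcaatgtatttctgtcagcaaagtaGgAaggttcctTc
Igkv3-7 (chr6:70607947-70608036, plus strand): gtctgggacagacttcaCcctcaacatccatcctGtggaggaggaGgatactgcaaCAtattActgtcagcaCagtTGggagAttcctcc

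Igkv3-1 differed from Igkv3-2 at 5 of these 90 bases, Igkv3-12 and Igkv3-7 at 10 each, and Igkv3-5 at 15. Over the 310 coding bases of the V exon, 92.9% of bases in Igkv3-1 equalled those of Igkv3-2. The share was 90.6% in Igkv3-5, 87.7% in Igkv3-12 and 86.8% in Igkv3-7. The segments of this subfamily were thus alike but not identical. Igkv3-2 shared no 100-base window with another Igkv segment, while Igkv3-5 shared 21.2% of its windows with Igkv3-10.

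The ends of 6 further segments are shown because they led other subfamilies or rose most in HSF V30M. These are the last 60 coding bases, in coding direction, with the cysteine codon in capitals.
Igkv1-99 (chr6:68542363-68542422, plus strand): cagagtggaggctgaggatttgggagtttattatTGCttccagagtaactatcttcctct
Igkv14-111 (chr6:68256810-68256869, plus strand): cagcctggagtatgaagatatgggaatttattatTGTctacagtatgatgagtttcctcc
Igkv17-127 (chr6:67861600-67861659, plus strand): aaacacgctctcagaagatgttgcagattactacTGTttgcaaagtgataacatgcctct
Igkv4-91 (chr6:68768555-68768614, minus strand): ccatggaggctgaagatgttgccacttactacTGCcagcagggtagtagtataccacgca
Igkv6-32 (chr6:70074024-70074083, minus strand): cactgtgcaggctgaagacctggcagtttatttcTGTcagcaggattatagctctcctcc
Igkv4-61 (chr6:69416893-69416952, minus strand): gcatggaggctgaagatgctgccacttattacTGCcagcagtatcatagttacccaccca

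All 100 V genes had a coding V exon with this cysteine codon in its open frame, written TGT in 64 and TGC in 36. A median of 23 bases followed it. Some segments resemble each other more closely, and 31 of the 65 Igkv segments above 0 shared at least 1 window of 100 bases with another. The highest share was 37.9% of windows, in the pair Igkv13-85 and Igkv13-84. Values of such segments are uncertain, since the authors' processing could divide their reads in more than 1 way. The mice were of a 129 strain and the reference is C57BL/6J, so strain differences in these segments could also change where reads were placed, which was not tested.

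The libraries behind the HSF WT values could be told apart in part. Each group value combines 2 libraries of unequal depth, and a fragment adds more FPKM in the shallower library. For genes with 1 transcript, HSF WT values of up to 100 fragments could be split into whole fragments of each library, within rounding and 0.0003%. This step was chosen after seeing the data, and the libraries cannot be assigned to the labelled mice. The deeper HSF WT library had 1.346 times the depth of the shallower, and the deeper HSF V30M library 1.19 times. By depth, 42.6% of fragments would come from the shallower HSF WT library, and 42.4% did (exact 95% interval 41.8 to 43.0%) over 2911 genes alone in their locus.

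Of 44 Igkv segments with 1 transcript above 0 in HSF WT, 40 could be split. Igkv3-2, Igkv3-5, Igkv3-12 and Igkv1-117 were over the limit of 100 fragments, and 14 further segments have several transcripts. The 40 segments had 400 fragments in the deeper and 645 in the shallower library, so 61.7% (58.7 to 64.7%) came from the shallower. These 40 segments held 27.4% of summed Igkv FPKM in HSF WT, while the 4 over the limit held 61.6%, so the library of most Igkv signal is not known. Among the segments that could be split, fragments leaned to the shallower library.

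Single Igkv segments were split far more unevenly than this. Of 21 Igkv segments with at least 10 fragments, 14 had at least 90% of them from 1 library, which is 66.7%, against 3.9% of 615 other genes. The shallower library was the source in 11 of the 14 and the deeper in 3. All fragments came from 1 library in 10 of the 21, each time the shallower, 47.6% against 0.976% of other genes. Of all 40 segments, 24 had no fragment in the deeper library, 1 had none in the shallower and 15 had some in both. Of 2911 other genes, 691 had none in the deeper, 843 none in the shallower and 1377 some in both. Having no fragment in a library was thus common among other genes too. Igkv segments with at least 10 fragments were often read mainly or wholly in 1 HSF WT library. Their group value then rests on that library.

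Summed over the locus, Igkv transcripts were far lower in HSF V30M nerve. Of the 160 segments, 65 were above 0 in at least 1 group and 95 were listed at 0 in both. Igkv segments above 0 numbered 40 in HSF V30M and 58 in HSF WT. Both groups shared 33 of them, 25 were above 0 in HSF WT alone and 7 in HSF V30M alone. The HSF V30M count was thus smaller, although the amount of Igkv RNA read also moves such counts. Matching counts over all genes are not given here, so no result about the repertoire is drawn from them.

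Ratios were taken as log2((HSF V30M + 1)/(HSF WT + 1)), a scale that understates the change of genes with low FPKM, and a segment was called past 1.5-fold. By this rule 45 Igkv segments were lower in HSF V30M, 69.2% of the 65, against 6.3% of the 29177 genes above 0. A further 10 Igkv segments were higher, 15.4%, against 6.06% of all genes, and 10 were neither. Both shares lay above those of all genes, and lower calls far outnumbered higher ones. The median Igkv log2 ratio was -1.43, with a range of -7.87 to 2.44, beside a median of 0.00 over all genes above 0. With Igkv segments at 0 set to the level of 3 fragments and no pseudocount, the median was -2.07.

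The Igkv segments summed to 79.99 FPKM in HSF V30M against 1251 in HSF WT, 15.6-fold lower. The log2 ratio of the sums was -3.97, with a 95% interval of -4.13 to -3.80 from the exact binomial interval of the fragments. Between 268 and 345 fragments stood behind the HSF V30M sum and between 3379 and 4606 behind the HSF WT sum. This interval, like every interval and floor given here, covers counting error only and holds no spread between mice. Reads without molecular identifiers are not independent molecules, so even counting error may be understated. Without Igkv3-2, the segment of highest FPKM, the sums were 78.7 and 709 FPKM, 9.02-fold lower. Fewer B lineage cells and less Igkv RNA per cell cannot be told apart in bulk nerve.

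The fall of Igkv was recomputed with each HSF WT library alone, taking each library to weigh equally in the group value. The 40 segments that could be split summed to 44.7 FPKM in HSF V30M against 343 in HSF WT, a log2 ratio of -2.94, with 31 lower and 4 higher. Against the shallower library alone, 481 FPKM, the sum was 10.8-fold lower, with 34 segments lower and 3 higher. Against the deeper alone, 205 FPKM, it was 4.58-fold lower, with 12 segments lower and 11 higher. The sum of these Igkv segments was lower in HSF V30M than in either HSF WT library, while the count of lower segments depended on the library. Only segments above 0 in HSF WT could enter, and the 7 above 0 in HSF V30M alone could not. The choice of the 40 thus itself favours lower values, here and in the split sums of subfamilies. Of the 40, 11 were lower against both libraries. Of the 31 lower in the main comparison, 5 were higher past the fold against the deeper library alone. Fewer Igkv segments thus fell against the deeper library. For the segments named by the rule given with the processing that could be split, what follows gives whether their change rests on 1 library.

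**Figure D1:**
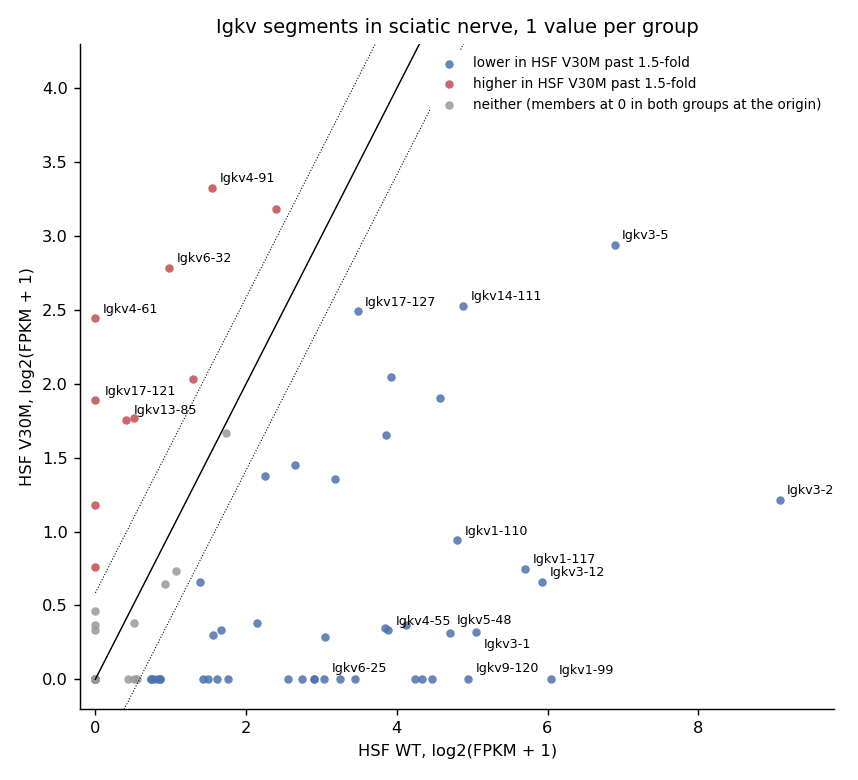
Each point is an Igkv segment, with log2(FPKM + 1) in HSF WT on the horizontal axis and in HSF V30M on the vertical axis. The solid line marks equal values and the dotted lines 1.5-fold, and most of the 65 points above 0 in a group lie below them (45 lower, 10 higher), with Igkv3-2 farthest to the right.

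The HSF WT signal was held by few segments. Igkv3-2 alone held 43.3% of summed Igkv FPKM in HSF WT, the 3 highest segments held 57.9% and the 10 highest 78.2%. In HSF V30M the highest segment, Igkv4-91, held 11.3%, the 3 highest 29.8% and the 10 highest 65.6%. The effective number of segments, 1 over the sum of squared shares, was 4.81 in HSF WT and 17.7 in HSF V30M. The larger HSF WT sum was thus the less even. Without Igkv3-2 and Igkv4-91, the effective numbers were 15.7 and 17.5, so a single segment, Igkv3-2, set most of this difference.

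Igkv3-2 had 1.32 FPKM in HSF V30M and 542 in HSF WT. Its 6 fragments in HSF V30M stood against 1487 to 2002 in HSF WT, and it was 410.3-fold lower, with a counting interval of 188 to 1119.6. It was the segment with the highest FPKM and the largest fall, at -7.87 on the log2 scale. Igkv3-5 was next in level, with 6.68 FPKM in HSF V30M and 118 in HSF WT. It was 17.7-fold lower (12.1 to 26.7), and so kept a larger part of its level than Igkv3-2. Igkv3-12 had 0.58 FPKM, or 2 fragments, against 60.01. Its ratio was 103-fold with an interval of 28.2 to 861, which shows how little 2 fragments fix. Igkv3-1, the segment nearest to the joining segments, had 1 fragment in HSF V30M, 0.25 FPKM, against 32.2 in HSF WT. The ratio of 129-fold had an interval of 22.4 to 5146. All 79 of its HSF WT fragments came from the shallower library, and against the deeper alone, at 0 FPKM, its log2 ratio was 0.32, so that the fall of Igkv3-1 rests on 1 library.

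Igkv1 segments made up the next block of high HSF WT values. Igkv1-99 was listed at 0 in HSF V30M and had 65.2 FPKM in HSF WT. Against a floor of 3 fragments, 0.870 FPKM, it was at least 74.9-fold lower. Igkv1-117 had 0.68 FPKM against 51.2, a ratio of 75.3-fold from 3 fragments in HSF V30M, with an interval of 25.4 to 368. Igkv1-110 had 0.92 FPKM against 26.9 and was 29.3-fold lower (11.1 to 110). It was lower against both HSF WT libraries, with log2 ratios of -3.43 for the deeper alone and -4.20 for the shallower alone. Igkv1-117 and Igkv1-110 shared 16.1% and 16.2% of their windows with each other, so the split between this pair is uncertain. Igkv1-88 had 3.13 FPKM against 14.1, and was the most abundant Igkv1 segment in HSF V30M. It was lower against both HSF WT libraries, with log2 ratios of -2.19 for the deeper alone and -1.46 for the shallower alone. Igkv1-88 was chosen for mention after its values were seen.

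Segments of other subfamilies were among the highest as well. Igkv9-120 was listed at 0 in HSF V30M against 29.8 FPKM in HSF WT, and was at least 33.0-fold lower. It fell against both libraries, with log2 ratios of -5.27 and -4.52. Igkv14-111 had 4.77 FPKM against 28.4, a 5.96-fold difference (3.56 to 10.5), but 73 of its 74 HSF WT fragments came from the shallower library. Against the deeper alone, 0.573 FPKM, Igkv14-111 was higher in HSF V30M, with a log2 ratio of 1.88, and against the shallower alone it was -3.31. Its direction thus depends on the HSF WT library. Igkv5-48 had 1 fragment in HSF V30M, 0.24 FPKM against 25.1, a ratio of 105-fold with an interval of 18.1 to 4195. All 62 HSF WT fragments of Igkv5-48 came from the shallower library, and against the deeper alone its log2 ratio was 0.31. Among the 10 highest segments, Igkv1-110 and Igkv9-120 fell against both HSF WT libraries, Igkv3-1, Igkv5-48 and Igkv14-111 against the shallower alone, and the other 5 could not be split.

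A small set of Igkv segments was higher in HSF V30M. Igkv4-91 had the highest level of all in HSF V30M, 9.03 FPKM, against 1.93 in HSF WT. It was 4.68-fold higher, with a counting interval of 1.94 to 13.6. Igkv6-32 had 5.89 FPKM against 0.970, or 3 fragments, a ratio of 6.07-fold with an interval of 1.83 to 31.6. Igkv4-61 had 4.44 FPKM in HSF V30M and was listed at 0 in HSF WT, which made it at least 2.04-fold higher. It shared 19.1% of its windows with other Igkv4 segments, so its reads could be divided differently. Igkv17-121 had 2.70 FPKM and was likewise listed at 0 in HSF WT, at least 2.09-fold higher. Igkv13-85 had 2.38 FPKM against 0.326, which is a single fragment in HSF WT, a ratio of 7.29-fold with an interval of 0.978 to 324. Counting error alone thus covers equal values for Igkv13-85, but not for Igkv4-91 or Igkv6-32. Igkv4-91, Igkv6-32 and Igkv13-85 were higher past the fold against each HSF WT library alone. Their HSF WT values are so low that any split between the libraries would have given this, so no conclusion is drawn from it. None of these levels exceeded the 9.03 FPKM of Igkv4-91, and the rises were small in amount beside the falls.

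Many of the remaining Igkv values rest on few reads. In HSF V30M, 19 Igkv segments above 0 had 3 fragments or fewer, and in HSF WT 15 did. The lowest values above 0 were 0.22 FPKM in HSF V30M and 0.326 in HSF WT. At 1 fragment on a transcript of 360 bases, the value was 0.243 or 0.288 FPKM in HSF V30M and 0.301 or 0.405 in HSF WT, depending on the library. A segment listed at 0 was therefore not detectable at this depth rather than shown to be absent.

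The subfamilies differed in how far their pooled values fell. Igkv3, with 13 segments of which 7 were above 0, summed to 19.0 FPKM in HSF V30M and 778 in HSF WT, 41.0-fold lower. Without Igkv3-2 it was 13.4-fold lower. Its 2 split segments, Igkv3-1 and Igkv3-4, summed to 1.98 FPKM in HSF V30M against 0 in the deeper HSF WT library and 74.9 in the shallower, so their sum was higher than in the deeper library. Igkv3-2, Igkv3-5 and Igkv3-12, with most of the subfamily's level, could not be split. Igkv3 held 23.7% of summed Igkv FPKM in HSF V30M against 62.2% in HSF WT. In this subfamily 6 segments were lower and 1, Igkv3-7, was higher. Igkv3-7 had 8.10 FPKM in HSF V30M and 4.25 in HSF WT, a ratio of 1.91-fold whose interval of 0.889 to 4.43 includes equal values. It was the most abundant Igkv3 segment in HSF V30M, where Igkv3-2 led in HSF WT.

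Igkv1, with 13 segments and 6 above 0, summed to 7.25 FPKM in HSF V30M and 171 in HSF WT, 23.6-fold lower, and 14.6-fold without Igkv1-99. Its 3 split segments summed to 6.19 FPKM in HSF V30M against 61.8 in the deeper library and 47.3 in the shallower. All 5 calls in Igkv1 were lower, and the subfamily held 9.06% of the HSF V30M sum and 13.7% of the HSF WT sum. Igkv2, Igkv9 and Igkv15 were listed at 0 throughout in HSF V30M, while they summed to 43.4, 39.7 and 21.1 FPKM in HSF WT. Igkv5 fell to 0.75 FPKM from 37.6, and Igkv8 to 0.27 from 18.0, with 3 fragments and 1 fragment left in HSF V30M. Igkv12 had 2.97 FPKM against 27.0. Igkv10 had 0.58 against 3.70 FPKM. The pooled values of these subfamilies were thus lower, with no segment of them called higher. Part of these differences rests on 1 HSF WT library. The single Igkv15 segment above 0, Igkv15-103, had all 57 fragments from the shallower library and none in the deeper. The split segments of Igkv5 summed to 65.4 FPKM in the shallower library alone and to 0 in the deeper, against 0.46 in HSF V30M. The 2 split segments of Igkv12 summed to 49.3 and 0 FPKM, against 2.97 in HSF V30M. Igkv12-89, with several transcripts, could not be split and had 2.38 FPKM in HSF WT, so the direction of Igkv12 as a whole against the deeper library is not known. For Igkv2, Igkv8, Igkv9 and Igkv10, the split segments summed lower in HSF V30M than in each library.

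Igkv4 fell less than Igkv3 and Igkv1. Its 33 segments, the most of any subfamily, had 15 above 0 and summed to 22.8 FPKM in HSF V30M and 52.8 in HSF WT, 2.32-fold lower. The size of this fall depends on the library, since its 13 split segments summed to 18.3 FPKM in HSF V30M against 32.3 in the deeper HSF WT library and 71.9 in the shallower. With 9 segments lower and 3 higher, Igkv4 held 28.4% of the HSF V30M sum and 4.22% of the HSF WT sum. Its leading segment changed from Igkv4-55 in HSF WT to Igkv4-91 in HSF V30M. Igkv4-55 had 13.8 FPKM in HSF WT and 1 fragment, 0.26 FPKM, in HSF V30M. Its ratio was 53.0-fold with an interval of 8.95 to 2146. All 38 HSF WT fragments of Igkv4-55 came from the shallower library, and against the deeper alone its log2 ratio was 0.33. The leading Igkv4 segment of HSF WT was thus that of 1 library.

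Igkv6 had 8.11 FPKM against 16.8, 2.07-fold lower, with 3 segments lower and 3 higher, and held 10.1% of the HSF V30M sum and 1.34% of the HSF WT sum. Of the higher ones, Igkv6-23 at 0.69 FPKM and Igkv6-13 at 1.27 were listed at 0 in HSF WT and lay under its floors of 1.15 and 2.12 FPKM, so that Igkv6-32 alone had a rise past counting error. Igkv6-23 and Igkv6-13 were named after their values were seen. The 4 split Igkv6 segments summed to 6.15 FPKM in HSF V30M against 11.8 in the deeper HSF WT library and 21.8 in the shallower. Igkv6-25, its leading segment in HSF WT with 7.21 FPKM, was listed at 0 in HSF V30M and was at least 9.36-fold lower. Its 20 HSF WT fragments were all from the shallower library, so it was at 0 in the deeper as well. Without Igkv6-25 the subfamily was 1.18-fold lower. Igkv17 had 7.33 FPKM against 10.2 and held 9.16% and 0.814% of the sums. Igkv17-127 had 4.63 FPKM against 10.2, 2.20-fold lower (1.16 to 4.28), while Igkv17-121 was the segment listed at 0 in HSF WT. This pair shared 14.0% and 13.8% of windows, so its split is uncertain. Igkv14 had 7.17 FPKM against 29.7, mostly Igkv14-111 of the shallower library, and held 8.96% and 2.37% of the sums. Without Igkv14-111 it had 2.40 FPKM against 1.25 and so was higher in HSF V30M. The 2.40 FPKM was wholly that of Igkv14-130. Its ratio of 5.57-fold had an interval of 0.772 to 244, which includes equal values. Igkv13 was the only subfamily with a higher sum in HSF V30M, 2.64 FPKM against 0.326, with 2 of 18 segments above 0. The single segments of Igkv16 and Igkv19 had 0.66 against 1.09 FPKM and 0.56 against 0.897 FPKM, at or under the floor of 3 fragments in both groups. Igkv7, Igkv11, Igkv18 and Igkv20 were listed at 0 in both groups.

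**Figure D2:**
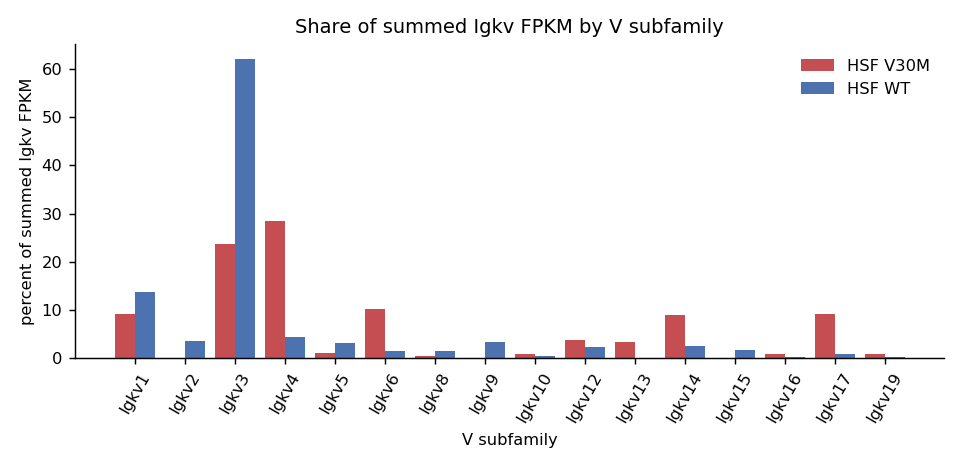
Bars give the percent of summed Igkv FPKM held by each V subfamily in HSF V30M (red) and HSF WT (blue), for subfamilies above 0 in a group. Igkv3 holds 62.2% in HSF WT and 23.7% in HSF V30M, while Igkv4 holds 4.22% and 28.4%.

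Annotated function separated the segments in both groups. V genes had 63 of 100 segments above 0, and pseudogenes 2 of 60. The V genes held 99.5% of summed Igkv FPKM in HSF V30M and 99.9% in HSF WT. Both pseudogenes above 0 were low. Igkv1-108 had 0.38 FPKM, from 1 fragment, in HSF V30M and was listed at 0 in HSF WT. Igkv4-77 was listed at 0 in HSF V30M and had 1.70 FPKM in HSF WT, at least 1.87-fold lower. All 4 of its HSF WT fragments came from the shallower library. Against the deeper alone its log2 ratio was 0, so its fall rests on 1 library. Igkv1-108 and Igkv4-77 were named because they were the only pseudogenes above 0, after their values were seen. Igkv signal in both groups thus came almost wholly from annotated V genes.

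The Igkv segments lie 18.7 to 3167 kb from the first joining segment, Igkj1, on both strands. A segment on the strand of Igkc, the plus strand, joins by deletion of the DNA between, and a segment on the other strand joins by inversion. The 38 plus-strand V genes summed to 38.4 FPKM in HSF V30M against 1079 in HSF WT, with 20 lower and 3 higher. The 62 minus-strand V genes summed to 41.2 and 170 FPKM, with 24 lower and 7 higher. Plus-strand V genes thus held 86.3% of the HSF WT sum and 48.0% of the HSF V30M sum. Without Igkv3-2, a plus-strand segment, they held 75.8% and 47.1%, and their fall was 14.5-fold.

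By distance, the 53 segments nearest to Igkj1, within 1041 kb, held 70.2% of summed Igkv FPKM in HSF WT and 39.2% in HSF V30M. The middle 53, from 1073 to 1967 kb, held 5.29% and 35.3%. The farthest 54, beyond 1986 kb, held 24.5% and 25.5%, nearly the same part in both groups. In FPKM, the nearest stretch was 28.0-fold lower in HSF V30M, the middle 2.35-fold and the farthest 15.0-fold. Without Igkv3-2 the nearest was 11.2-fold lower, without Igkv1-99 the farthest 11.8-fold and without Igkv1-88 the middle 2.08-fold. The order of the nearest and farthest thus rests on single segments, while the middle fell least with or without these. Segments of a subfamily often lie together, so position and subfamily cannot be told apart here.

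**Figure D3:**
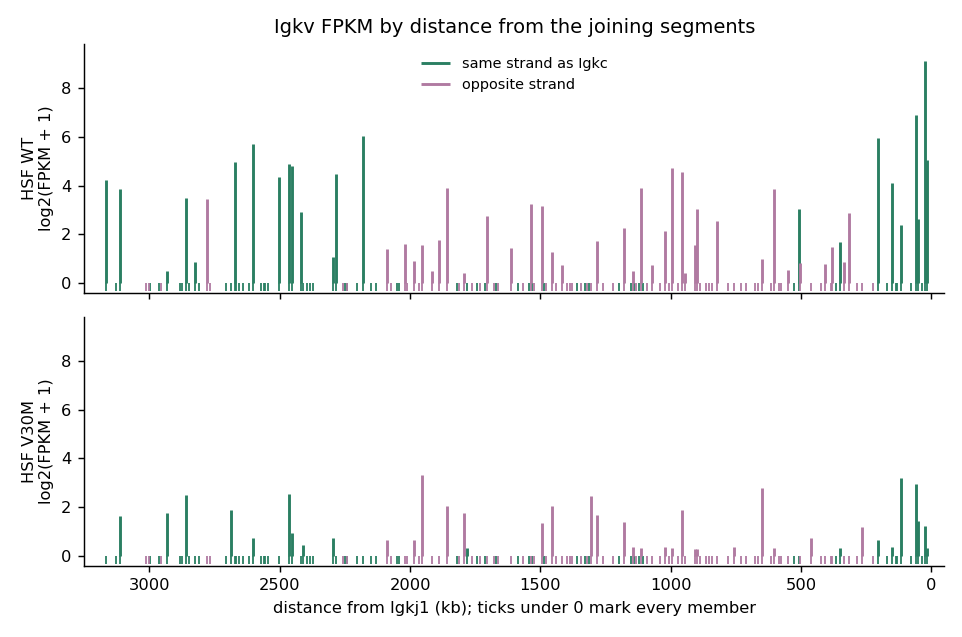
Vertical lines give log2(FPKM + 1) of each Igkv segment in HSF WT (upper panel) and HSF V30M (lower panel) against the distance from Igkj1 in kb, coloured by strand, and ticks under 0 mark all 160 segments. The tallest HSF WT lines stand next to Igkj1 and in the farthest stretch. Most of them are short or missing in HSF V30M, while Igkv3-5 and Igkv14-111 are among the taller lines there.

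The constant part of the same transcripts was compared with the V segments. Igkc had 68.8 FPKM in HSF V30M and 1282 in HSF WT, 18.6-fold lower. Summed Igkv per Igkc was 1.16 in HSF V30M against 0.976 in HSF WT. The Igkv sum and Igkc, which are different parts of the kappa transcript, were thus both lower, by 15.6-fold and 18.6-fold. Without Igkv3-2 the Igkv sum was 9.02-fold lower. Whether the falls of Igkv and Igkc differ was not tested. The joining segments gave no usable level. Igkj1, Igkj2 and Igkj4 were listed at 0 in HSF V30M and at 720, 1333 and 413 FPKM in HSF WT, but these values stood for 2, 3 to 6 and 1 fragments on transcripts shorter than most fragments. Igkj3 and Igkj5 were listed at 0 in both groups.

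Heavy chain variable segments (Ighv), which pair with light chains in the antibody, were lower as well. The 185 Ighv segments summed to 43.8 FPKM in HSF V30M and 379 in HSF WT, 8.66-fold lower, with a counting interval of 7.38 to 10.2. This is less than the 15.6-fold of all Igkv. With the highest HSF WT segment left out on both sides, Igkv was 9.02-fold lower without Igkv3-2 and Ighv 6.89-fold without Ighv2-9, so the gap was smaller but did not close. Whether the falls of Igkv and Ighv differ was not tested. Of the 88 above 0, 48 were lower and 8 higher, with a median log2 ratio of -0.73. Summed Igkv per summed Ighv was 1.83 in HSF V30M against 3.30 in HSF WT, 1.80 against 1.87 without Igkv3-2, and 1.80 against 2.35 without Igkv3-2 and Ighv2-9. The effective number of Ighv segments was 17.1 in HSF V30M against 13.9 in HSF WT, and the highest Ighv segment held 13.8% and 20.5%. In HSF WT, Igkv signal was thus more concentrated in few segments than Ighv signal, with 43.3% in Igkv3-2.

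The heavy chain constant genes name the antibody classes that Igkv light chains pair with. Ighm, the IgM gene, had 19.9 FPKM against 378, 19.1-fold lower, and Ighd, the IgD gene, 0.78 against 2.43. Ighg3 had 1.99 FPKM against 120, 60.4-fold lower, the largest fall among these genes. Igha, the IgA gene, had 5.81 FPKM against 72.7. Other IgG genes fell less than Igkv did. Ighg1 had 4.61 FPKM against 26.0, Ighg2b 14.6 against 86.4 and Ighg2c 15.8 against 42.4. Ighe had 0.08 against 2.16 FPKM. Ighg2a was not analysed here. Strain differences from the reference could change the values of these constant genes as well, which was not tested.

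Lambda light chains, the alternative to kappa, were low in both groups. Iglc1 had 0.54 FPKM in HSF V30M and 3.44 in HSF WT, Iglc2 0.33 and 7.76, and Iglc3 0.37 and 6.18. Iglv1 had 0.24 and 1.02 FPKM, at or under 3 fragments in both groups. Iglv2 and Iglv3 were listed at 0 in HSF V30M, with 0.873 and 1.87 FPKM in HSF WT. Kappa transcripts thus far outnumbered lambda transcripts in HSF WT, with 1282 FPKM of Igkc against at most 7.76 for these genes.

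The B cell list was lower together with Igkv, as were 5 of the plasma cell genes, and no gene of early B cells was called. Of 14 B cell genes, 12 were lower and none higher, with a median log2 ratio of -1.02 and a sum of 5.79 FPKM in HSF V30M against 40.2 in HSF WT. The most abundant, the B cell surface receptor gene Cd22, had 1.26 against 8.49 FPKM, while the HSF WT value of Vpreb3, 0.305 FPKM, lies under the floor of 0.326 of HSF V30M, where it was listed at 0. Of 12 plasma cell genes, 5 were lower and none higher, with a median of -0.29 and a sum of 179 against 239 FPKM. The sums are mostly those of Sdc1 (69.3 against 60.5 FPKM), Xbp1 (45.6 against 52.3) and Txndc5 (49.8 against 52.1), which are also expressed outside plasma cells and were not called. The 5 lower genes were Jchain, Mzb1, Pou2af1, Derl3 and Fkbp11. Jchain, which links IgM and IgA units, was 19.5-fold lower, with 2.40 against 46.9 FPKM, beside 15.6-fold for the Igkv sum. Pou2af1 had 0.13 against 2.50 FPKM, from 3 to 8 fragments in HSF V30M, and Mzb1 0.24 against 6.12, from 1 to 4 fragments. With so few fragments their folds are uncertain. Of 5 genes of early B cells and recombination, none was called. The median over the 2 above 0 was 0.06, and the sum was 0.20 against 0.111 FPKM. Vpreb1 led with 0.15 against 0.0909 FPKM, and Rag2, Dntt and Igll1 were listed at 0 in both groups. Recombination genes were thus at or near 0 in both groups.

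Markers of other cell types also differed between the groups. Of 9 T cell genes, 4 were lower and none higher, with a median of -0.54 and a sum of 3.81 against 16.5 FPKM, led by Cd2 with 1.22 against 4.58. Of 6 genes of lymph node stroma and vessels, 1 was lower, with a median of -0.32 and a sum of 37.1 against 53.0 FPKM. The lower one was Cxcl13, with 1 against 4.45 FPKM, and it had 34 fragments in the deeper and 40 in the shallower HSF WT library. Ccl21a led with 25.1 against 34.9 FPKM. Madcam1 was listed at 0 in HSF V30M, where its HSF WT value of 0.087 lies under the floor of 0.186 FPKM. Of 6 macrophage genes, 2 were lower, with a median of -0.48 and a sum of 141 against 196 FPKM, led by C1qa with 70.6 against 96.5. Lymphoid and macrophage markers were thus lower or unchanged by the rule, never higher. All 4 skeletal muscle genes were lower, with a median of -1.80 and a sum of 31.0 against 109 FPKM, led by Ckm with 8.97 against 43.8. Of 4 adipocyte genes, 2 were lower, with a median of -0.54 and a sum of 1687 against 2253 FPKM, led by Cfd with 1188 against 1467. Muscle and fat markers were thus lower or not called, as Igkv mostly was.

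Blood cell markers went the other way from Igkv. All 6 neutrophil genes were higher in HSF V30M, with a median of 1.76 and a sum of 104 against 26.3 FPKM, led by S100a9 with 59.0 against 13.8. Of 5 erythrocyte genes, 4 were higher, with a median of 1.55 and a sum of 288 against 99.6 FPKM, led by Hbb-bs with 111 against 37.1. The part of these cell types in the Igkv result was not tested.

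**Figure D4:**
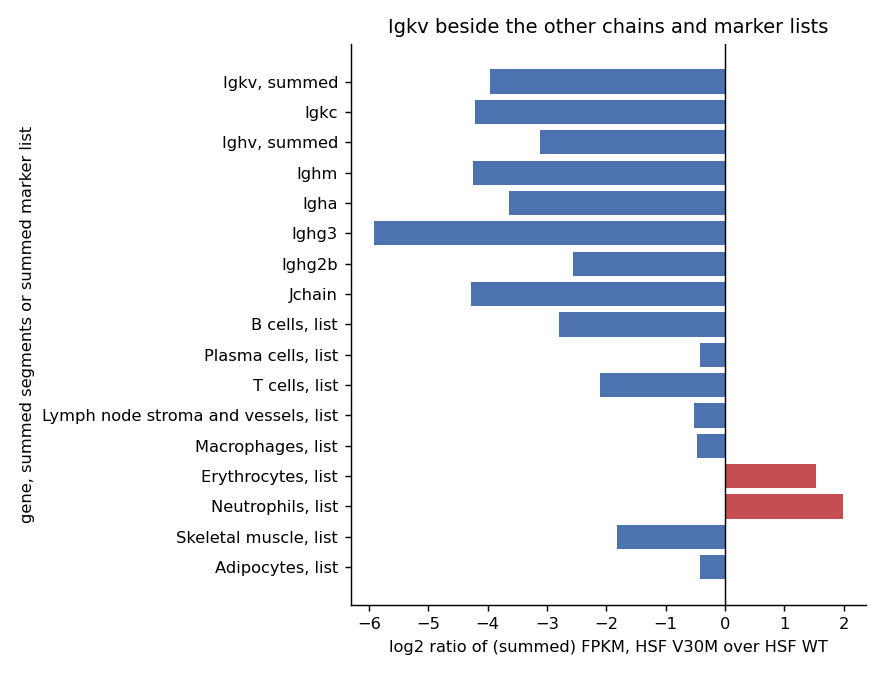
Bars give the log2 ratio of FPKM, or of summed FPKM for segments and marker lists, in HSF V30M over HSF WT. Igkv, Igkc, Ighm and Jchain lie near -4, B cell and T cell lists are lower by less, and erythrocyte and neutrophil lists are higher.

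The uneven split ran both ways. Igkv segments of the shallower library were given with their values, and others, named after their values were seen, leaned to the deeper library. Igkv4-74 had 33 fragments there and 1 in the shallower, and Igkv2-109 had 22 and 1. Igkv1-135 had 49 in the deeper and 4 in the shallower. Against the shallower alone its log2 ratio was -0.227, not past the fold, so its call rests on the deeper library. Some segments were well read in both, as Igkv1-110 with 41 in the deeper and 53 in the shallower library. Igkv9-120 had 60 and 26, and Igkv2-137 had 67 and 33. Of the 40 split segments, 15 had fragments in both HSF WT libraries, beside 1377 of 2911 other genes. An overlap in part was thus not particular to Igkv. Whether Igkv3-2, with the highest level, came from 1 library cannot be read from its value.

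**Figure D5:**
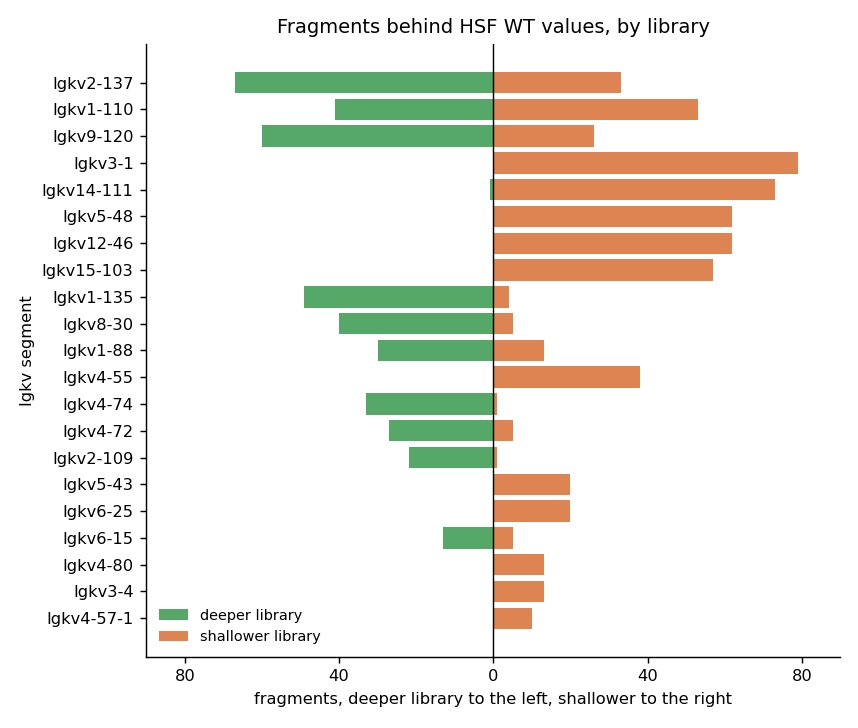
Bars give the fragments behind the HSF WT value of each Igkv segment with 10 to 100 fragments, with the deeper library to the left of 0 and the shallower to the right. Of 21 segments, 14 have at least 90% of their fragments on 1 side, such as Igkv3-1 with 79 in the shallower library and 0 in the deeper, and 10 have all of them there.

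The Ighv segments had the same feature. Of 52 that could be split, 100 fragments came from the deeper and 366 from the shallower library, 78.5% from the shallower. Of 16 Ighv segments with at least 10 fragments, 12 (75%) had at least 90% of them from 1 library. In the lambda genes, Iglc3 had 0 fragments in the deeper and 24 in the shallower library, while Iglc1 had 6 and 9. Other cell types differed between the HSF WT libraries too, since the neutrophil gene Ngp had 63 fragments in the deeper and 0 in the shallower, and the globin gene Hbb-bt 20 and 1. The part of this difference in the Igkv result was not tested.

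In HSF V30M, values are rounded to 2 decimals and only those of up to 6 fragments could be split. This held for 21 of 32 Igkv segments with 1 transcript above 0, of which 12 had 1 fragment. All 9 with 2 to 6 fragments had them from a single library, against 118 of 260 other short genes with 1 transcript (45.4%). For Ighv it was 13 of 14. In both groups, an Igkv segment seen in 1 library was often not seen in the other. Among other genes this was common too. In HSF WT, 1377 of 2911 other genes had fragments in both libraries, beside 15 of 40 Igkv segments. The HSF V30M segments with more fragments could not be split. A group value thus does not show that both mice held the segment.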

How the data were processed

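RNA sequencing of sciatic nerve from both mouse groups, with 2 labelled samples each, was used. The submitters' processing notes name STAR, Cufflinks and Cuffdiff and the build GRCm38, with versions not given in the sources used here. The deposited FPKM values are the authors' Cuffdiff estimates, 1 per gene and group. The authors' test statistic, log2 fold change, p-value, q-value and significance columns were not used. The members and lists were chosen with earlier results of these data known.

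Decimal commas were replaced by points, and 23 genes with too many alignments were left out. Ratios used a pseudocount of 1 and a fold of 1.5. Named segments were the 10 of highest FPKM, the 5 largest falls and 5 largest rises, and the top segment of each subfamily with at least 5% of a sum, beside the marker lists, immunoglobulin constant, joining and lambda genes. Igkv2-137, Igkv3-4, Igkv3-7, Igkv12-89 and Igkv15-103 are among the segments named outside this rule, and not all such segments are stated as such where they appear. The result of 1 marker list is not reported here.

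Transcripts, sequences and positions came from GENCODE M21 of GRCm38. Fragments were computed from FPKM and effective length, with Cufflinks' default fragment lengths (mean 200, SD 80, between 12 and 440 bases). The worth of 1 fragment in each library was read from genes with 1 transcript. A number of fragments is a range where transcripts differ. A floor is 3 fragments of the shallower library on the shortest transcript, over the group. Fold intervals are exact 95% binomial intervals of the fragments. Steps were tested on simulated data. Alternatives changed the pseudocount, scaling, filter, fold, members, unit and, chosen after seeing the data, the HSF WT library and the leaving out of the highest HSF WT segment of a set. Promoter and recombination signal motifs were not analysed here. Python 3.11.15, NumPy 2.4.6, SciPy 1.17.1 and Matplotlib 3.10.9 were used.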

Additional observations from a re-analysis of the deposited data

How the results depend on the processing

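Median-of-ratios scaling had a factor of 0.997 and so hardly changed any value, and a pseudocount cannot change the sign of a ratio, so neither says anything of the stability of direction. With a mean FPKM of at least 5, 22 segments were kept, of which 20 were lower and 2 higher, with a median log2 ratio of -3.91. No segment reaches that mean from its HSF V30M value alone, so the filter itself favours lower segments and says nothing of stability. The median was -3.01 with a pseudocount of 0.1, -2.58 with none, -2.61 with a mean FPKM of at least 1 and -1.49 for V genes alone. Without Igkv3-2 and Igkv4-91, the log2 ratio of the sums was -3.34. The HSF WT shares were then 24.2% for Igkv1, 33.4% for Igkv3, 7.19% for Igkv4, 2.38% for Igkv6, 4.198% for Igkv14 and 1.44% for Igkv17, and the HSF V30M share of Igkv4 was 19.7%, as removing these segments changes the total. The effective number in HSF V30M was 17.5 without them, 17.6 for V genes alone and 18.0 by fragments. In HSF WT it was 15.7, 4.799 and 4.77.

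Among alternatives chosen after seeing the data, the log2 ratio of the sums was -3.17 without Igkv3-2 alone, and that of Igkv14 turned to 0.941 without Igkv14-111, while the other subfamilies, stretches and plus-strand V genes that could be compared stayed below 0 without their highest HSF WT segment. Igkv17 is not among these, since without Igkv17-127 it is listed at 0 in HSF WT. Further, 8 of 12 segments came mostly from 1 HSF WT library with at most 50 fragments, since fewer segments enter. Of the 40 segments that could be split, 12 were lower against the deeper HSF WT library alone, where the log2 ratio of the sums was -2.19, and it was -3.43 against the shallower alone. The log2 ratio turned positive against the deeper library alone for 4 of the 10 named segments that could be split, to 1.88 for Igkv14-111, 0.33 for Igkv4-55, 0.31 for Igkv5-48 and 0.32 for Igkv3-1, and for 11 of all 31 lower ones. Against the shallower alone none of these turned. The construction shows why, since the deeper library holds at most 1 fragment of each named one, while the cause of the difference between libraries was not tested. No paired analysis was possible because values per mouse are not among the data used. Leaving out each labelled replicate was not run for that reason, and the values against each HSF WT library alone stand in its place for the 40 segments. These 40 were all above 0 in HSF WT by choice, which favours lower values in HSF V30M. Depth limits values at 3 fragments or fewer.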
